A study of Mus musculus with 6 samples.

Results

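The contrast described here set the 2 libraries of colon ILC2s treated with FK866 apart from the 4 libraries of Control and of FK866 plus succinate, and asked which peaks FK866 alone lacked and which it alone carried. All 6 peak lists of the series entered it. Overlapping peaks were merged into 101435 regions on chromosomes 1 to 19, X and Y. Of these, 379 regions had a peak in all 4 other libraries and in neither FK866 library, and 607 had a peak in both FK866 libraries and in none of the other 4. The same reading was made for genes, through a window of 4 kb around the strongest peak site of each gene. Of 15891 genes with such a site, 33 showed the first pattern and 7 the second. With only the peaks whose adjusted p was under 0.05, the regions numbered 80 and 357 of 43759, and the genes 13 and 20. The members were fixed by presence of a peak, so their presence and absence is a description and was not tested member by member.

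ILC2s are tissue lymphocytes without antigen receptors that answer epithelial alarm cytokines with type 2 cytokines. FK866 blocks nicotinamide phosphoribosyltransferase, the product of Nampt and the enzyme that recycles nicotinamide into NAD. Succinate is a metabolite of the tricarboxylic acid cycle, oxidised by succinate dehydrogenase, and is also a product of the dioxygenases that demethylate histones and DNA. CUT&Tag uses an antibody on chromatin to bring a transposase to its target, and the DNA cut nearby is sequenced. The labels used here name no antibody, and a peak therefore marks only a stretch enriched for an unnamed target.

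Every group held ILC2s sorted from mouse gut, labelled as colon, and grown with the cytokines IL-33, IL-25, IL-7 and IL-2. The Control group received no labelled agent, the second group received FK866, and the third received FK866 together with succinate. Each group had 2 libraries, named here by group and replicate number. The labels used here give no dose, time, strain or age, and leave unstated if both libraries of a group came from separate cultures or animals. The limma p-values therefore measure only the spread between these libraries, which may be technical. The exact permutation p-values only rank the FK866 pair among the pairs of these same libraries, whose differences may be technical too. No group given succinate without FK866 was analysed here. The lists held between 40320 and 56361 peaks and covered between 39.0 and 43.8 Mb, with read depth unknown. Background levels inferred from the deposited fold values were 1.85 and 2.14 fragments per position in Control, 2.11 and 1.60 in FK866, and 1.74 and 1.25 in FK866 plus succinate. The library with the lowest background, FK866 plus succinate 2, had the longest list and the narrowest peaks, with a median of 528 bp. The 13 ILC2 marker genes, Gata3, Rora and Il1rl1 among them, had peaks in all 6 libraries, and their windows were covered to a group mean of 65.6% (Control), 66.4% (FK866) and 66.0% (FK866 plus succinate).

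Promoters show the 2 patterns most directly, because the stretch with or without a peak can be read as sequence. RefSeq start sites gave 32817 promoter windows of 300 bases in the GRCm38.p6 table, whose coordinates are those of mm10. Peaks in all 4 other libraries and in neither FK866 library were found in 19 windows (0.0579%), and peaks in the FK866 libraries only in 26 (0.0792%). The 3 promoters printed first are those of immune or nutrient receptors and of a cytokine inhibitor with the former pattern, chosen after their values were seen. The 200 bases before the start are given 5′ to 3′ on the gene's strand, and capitals mark the 4 motifs, of 11 searched on both strands, that occur in the stretches shown. For the search, the motif of the GATA family was spelled AGATAA, that of the factor AP-1 TGANTCA, that of the ROR family AGGTCA and that of the SP family GGGCGG. N stood for any base, so the AP-1 spelling is a loose one, and the match at P2ry10 reads TGAATCA.
P2ry10: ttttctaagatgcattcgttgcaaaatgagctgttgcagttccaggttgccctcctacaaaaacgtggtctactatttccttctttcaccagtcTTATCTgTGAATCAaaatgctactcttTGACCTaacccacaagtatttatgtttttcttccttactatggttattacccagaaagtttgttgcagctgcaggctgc
Ffar4: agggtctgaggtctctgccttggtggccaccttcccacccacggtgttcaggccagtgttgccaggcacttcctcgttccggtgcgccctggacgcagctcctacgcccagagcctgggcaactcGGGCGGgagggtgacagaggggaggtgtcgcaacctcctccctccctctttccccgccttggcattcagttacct
Il18bp: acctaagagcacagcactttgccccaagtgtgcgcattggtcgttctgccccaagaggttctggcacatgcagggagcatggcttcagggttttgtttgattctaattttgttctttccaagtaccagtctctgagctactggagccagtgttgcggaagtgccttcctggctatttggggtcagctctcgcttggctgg

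P2ry10 encodes a lymphocyte receptor for lysophospholipids, and the stretch shown is chrX:107088292-107088491, plus strand. Its promoter window was covered by peaks to 96.7% and 98.0% in Control and to 96.7% in each FK866 plus succinate library, and to 0% in both FK866 libraries. The deposited fold enrichment of these peaks was 5.75 and 2 in Control and 1.82 and 5.1 in FK866 plus succinate, and 3 of the 4 libraries had a peak there with an adjusted p under 0.05. The stretch holds the letters of the GATA, AP-1 and ROR motifs, the former pair separated by a single base. Over all promoter windows of 300 bases, which are longer than the 200 bases shown, 11.2% held the GATA letters, 7.81% the AP-1 letters, 16.3% the ROR letters and 35.6% the SP letters.

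Ffar4 encodes a receptor for long-chain fatty acids (chr19:38096879-38097078, plus strand). Its promoter window was covered to 82.7% and 66.7% in Control, 64.3% in each FK866 plus succinate library and 0% in both FK866 libraries. Only 1 of its 4 peaks had an adjusted p under 0.05. Il18bp encodes the secreted inhibitor of IL-18 (chr7:102018233-102018432, minus strand). Its window was covered to 100% and 64.7% in Control, 67.7% and 15.3% in FK866 plus succinate, and 0% in FK866, and 3 of the 4 libraries had a peak with an adjusted p under 0.05. None of the motifs above lies in the Il18bp stretch.

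The reverse pattern is shown by a T cell kinase, an antioxidant enzyme and a transcription factor, again with capitals for the same motifs.
Lck: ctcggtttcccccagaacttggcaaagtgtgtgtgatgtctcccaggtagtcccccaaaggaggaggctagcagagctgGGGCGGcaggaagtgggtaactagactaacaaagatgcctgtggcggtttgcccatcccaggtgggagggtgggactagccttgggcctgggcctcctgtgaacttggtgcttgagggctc
Txnrd1: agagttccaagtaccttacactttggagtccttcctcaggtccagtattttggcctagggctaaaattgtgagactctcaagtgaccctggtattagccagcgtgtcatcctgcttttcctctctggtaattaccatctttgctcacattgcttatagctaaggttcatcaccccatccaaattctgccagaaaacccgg
Ascl2: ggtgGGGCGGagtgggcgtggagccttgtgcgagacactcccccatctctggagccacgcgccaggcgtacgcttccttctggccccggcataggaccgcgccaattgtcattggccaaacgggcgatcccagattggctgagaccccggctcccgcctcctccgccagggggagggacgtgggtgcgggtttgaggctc

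Lck encodes a tyrosine kinase that acts at the antigen receptor of T cells, and the start shown (chr4:129558373-129558572, minus strand) is the downstream start of the 2 in the table. Peaks covered 100% and 70.3% of its promoter window in the FK866 libraries and none of it in the other 4. Txnrd1 encodes cytosolic thioredoxin reductase, and the most upstream of its 3 starts (chr10:82833751-82833950, plus strand) was covered to 82.3% and 90.7% in FK866 and to 0% elsewhere. Both are weak peaks, with an adjusted p under 0.05 in 1 library at Lck and in 0 at Txnrd1. The 4-kb gene window of Lck, which holds the start shown, had peaks in all 6 libraries, over 36.9% to 49.8% of it. The deposited fold enrichment was 2.05 and 1.82 at Lck and 2.18 and 2.7 at Txnrd1. At Ascl2, which encodes a basic helix-loop-helix factor (chr7:142969265-142969464, minus strand), the folds were 6.38 and 3.42 over 100% and 15% of the window, and both peaks had an adjusted p under 0.05. The Ascl2 promoter kept the FK866-only pattern when only such peaks were counted.

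As a group the promoters of both patterns were poorer in CpG than those with a peak in every library. The median CpG count per window was 6 for the 19 and 5 for the 26 promoters, against 22 for the 13062 promoters with a peak in all 6 libraries and 3 for the 17300 with no peak in any. Other promoters with peaks in exactly 4 libraries had a median of 11, and other promoters with peaks in exactly 2 had a median of 6. Windows of 1 gene can overlap: Gm33078 gave 3 of the 19 windows and Pdzd9 gave 2 of the 26, and 2 of the ROR matches below are overlapping windows of Gm33078. The ROR letters were found in 5 of 19 and 5 of 26, the AP-1 letters in 3 of 19 and 3 of 26, the SP letters in 4 of 19 and 9 of 26, and the GATA letters in 1 of 19 and 0 of 26. Against the other 14 ways of choosing a pair of libraries, 19 held rank 7 from the top (exact permutation test, one-sided p = 0.467) and 26 held rank 10 (exact p = 0.667), so neither count set the FK866 pair apart from the other pairs. The promoter windows were added after the data had been seen.

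Regions gave the same picture on a larger scale. The 379 regions absent in FK866 alone made up 0.374% of all regions, and the 607 present in FK866 alone made up 0.598%. If any 2 of the 6 libraries are taken as the odd pair, the first count ranges from 225 to 487 and the second from 543 to 1689. The FK866 pair held rank 3 from the top for absent regions (exact permutation test over the 15 pairs, one-sided p = 0.2) and rank 13 for regions of its own (exact p = 0.867). The smallest p this design can give is 0.0667. The pair with the most absent regions was FK866 plus succinate 1 and 2, with 487. The mixed pair of Control 2 and FK866 1 reached 382. The pairs with the most regions of their own held the longest lists: Control 1 and FK866 plus succinate 2, with 106850 peaks together, had 1689, while the FK866 pair, with 83788 peaks, had 607.

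**Figure D1:**
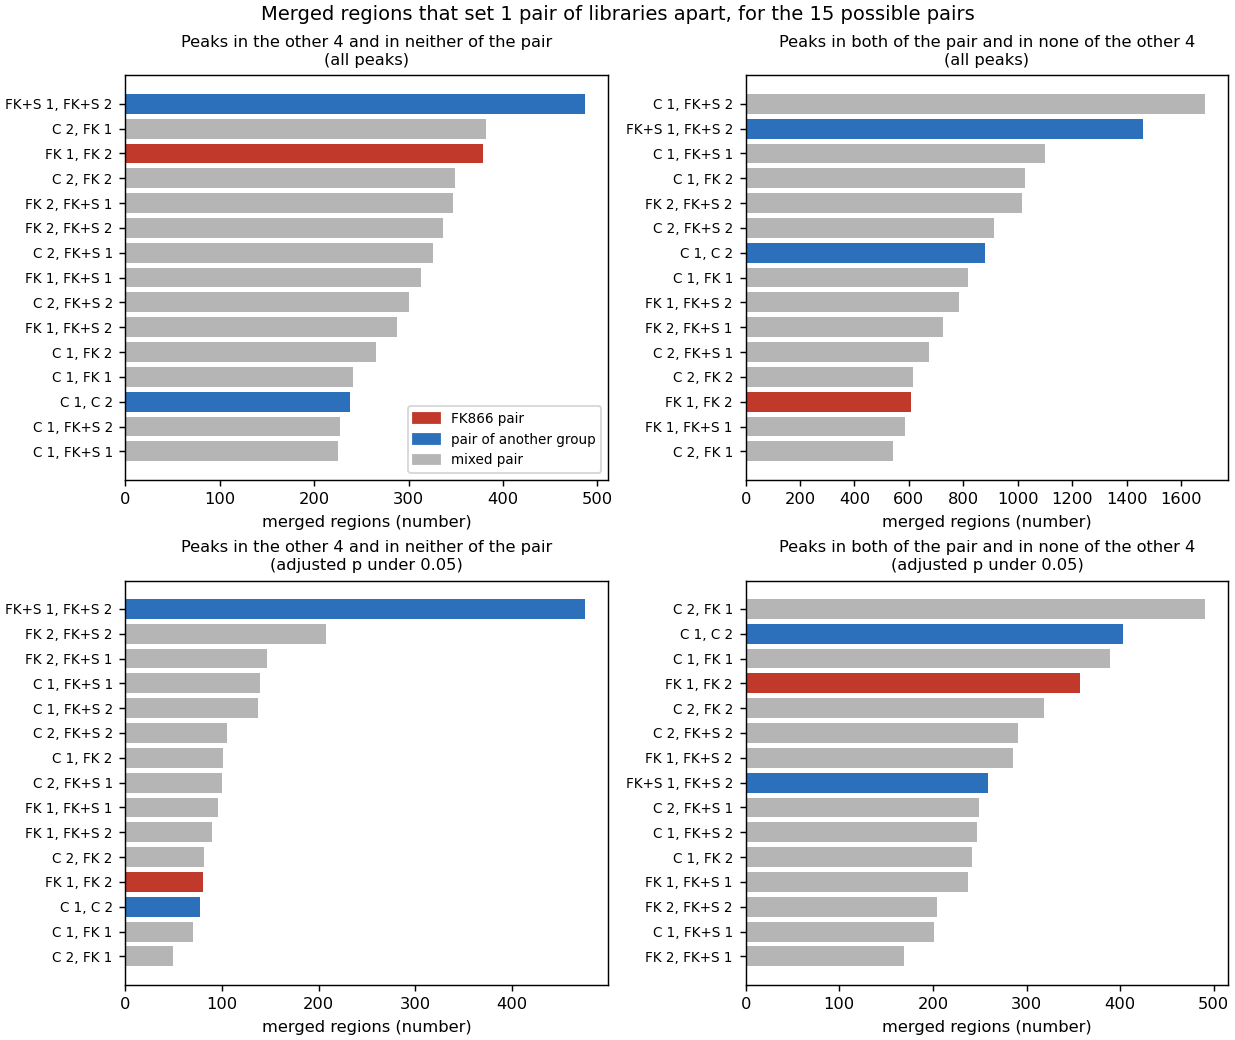
Number of merged regions (x axis) that set each of the 15 possible pairs of libraries (y axis; C, Control; FK, FK866; FK+S, FK866 plus succinate) apart from the other 4, for all peaks (top) and for peaks with an adjusted p under 0.05 (bottom); left, regions that the pair lacked, right, regions that only the pair had. The FK866 bars (red) reach 379 and 607 above and 80 and 357 below, and in no panel is the FK866 pair the highest.

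Counting only peaks with an adjusted p under 0.05 left 80 regions absent in FK866 alone (0.183%) and 357 present in FK866 alone (0.816%). These held rank 12 (exact p = 0.8, range over the 15 pairs 49 to 476) and rank 4 (exact p = 0.267, range 169 to 491). Here the pair with the most absent regions was again FK866 plus succinate, with 476. Many of these regions held a peak of lower confidence in the libraries counted as empty. Of the 80 regions, 26 had a weaker peak in both FK866 libraries, 33 in 1 of them and 21 in neither. Of the 357, 311 (87.1%) had a weaker peak in at least 1 of the other libraries and 46 had none. With all lists cut to the length of the shortest, the counts were 212 (exact p = 0.6) and 781 (exact p = 0.133).

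Just outside the pattern lay many more regions than inside it. Of 23710 regions with peaks in all 4 other libraries, 22049 had a peak in both FK866 libraries, 740 in FK866 1 alone, 542 in FK866 2 alone and 379 in neither. A further 1775 regions had peaks in 3 of the 4 other libraries and in neither FK866 library. On the other side, 28350 regions had a peak in both FK866 libraries, of which 1186 also had 1 in exactly 1 of the other libraries and 607 had none. Libraries of the FK866 group shared 0.613 of their covered bases by the Jaccard index, the overlap divided by the union. Control 2 and FK866 1 shared more, 0.634. The mean index within the FK866 pair and within the other 4 libraries was 0.554, against 0.575 between the 2 sets. The difference of -0.0215 held rank 14 of 15 (exact permutation test, p = 0.933), and the highest, 0.042, belonged to FK866 plus succinate.

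Member regions lay mostly away from gene starts. Of the 379 absent regions, 6.07% lay within 1 kb of a RefSeq start, 56.2% elsewhere in a gene and 37.7% outside genes, and other regions with peaks in 4 libraries had 7.96% near a start. The 607 FK866-only regions had 4.28% near a start, 67.1% elsewhere in a gene and 28.7% outside, and other regions with peaks in 2 libraries had 4.49%. Regions with a peak in all 6 libraries differed from both, with 47.4% near a start. The member peaks were also low. Summit heights in fragments could be inferred for 55.5% to 60.6% of the peaks in absent regions, 39.9% to 41.1% in FK866-only regions and 12.2% to 14.9% in regions shared by all 6 libraries. Their medians were between 5 and 8 in the 4 libraries with the absent regions and 5 and 7 in the FK866 libraries with their own, against 7 to 12 in regions shared by all 6. Between 30.4% and 47.8% of the peaks in absent regions and between 22.7% and 27.6% in FK866-only regions had an adjusted p under 0.05, against 89.1% to 94.8% in shared regions.

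**Figure D2:**
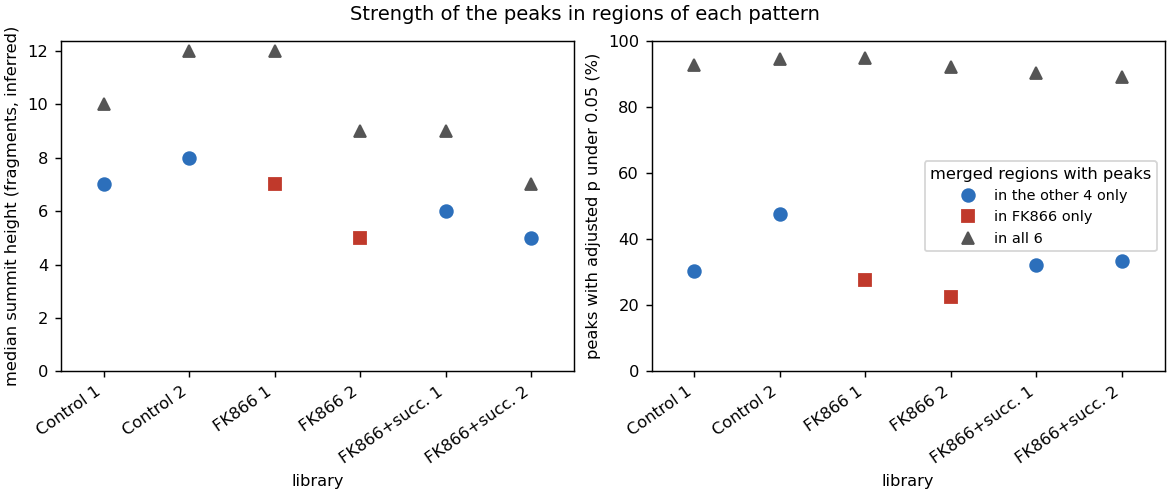
Median summit height in inferred fragments (left) and share of peaks with an adjusted p under 0.05 (right) for each library, in regions with peaks in the other 4 libraries only (blue circles), in FK866 only (red squares) and in all 6 (grey triangles). In every library the member peaks lie below the shared ones in both measures, for example 47.8% against over 89.1% for the highest blue circle.

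A smaller core of regions held the pattern both in the whole lists and with adjusted p under 0.05. Of the 379 absent regions, 21 (5.54%) showed the pattern with adjusted p under 0.05 as well, which is 26.2% of the 80. Of the 607, 46 (7.58%) did so, 12.9% of the 357. The strongest absent region lay within Gm7592 (chr1:85526505-85527236), at a mean within-list percentile of 71.0. Peaks covered 286 and 294 bp of it in Control and 702 and 279 bp in FK866 plus succinate. Next came a region 27935 bp from Serpina3n (chr12:104442269-104442724), an acute-phase protease inhibitor, with 314 and 319 bp in Control and 374 and 341 bp in FK866 plus succinate.

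Other strong absent regions were in Cspg4 (chr9:56889943-56890549), a membrane proteoglycan, in Nfix (chr8:84737494-84738137) and Nfic (chr10:81406815-81408059), both of the nuclear factor I family, and in Extl3 (chr14:65112640-65113328), a glycosyltransferase of heparan sulfate. Another lay 17343 bp from Pde4b (chr4:102624618-102625560), a phosphodiesterase that degrades cyclic AMP, and had 403 and 468 bp in Control and 516 and 850 bp in FK866 plus succinate. The remainder of the 10 strongest lay near Dnttip2, Parp11 and Gm7958. With adjusted p under 0.05, Nfix (chr8:84713295-84714141) and Nfic (chr10:81408711-81409496) also held FK866-only regions, so both genes showed both patterns. Weaker peaks lay in those regions in 3 and 4 of the other libraries. The widest absent region, 2968 bp, lay 1706 bp from Tra2b, a splicing factor, and was filled unevenly, from 2186 bp in Control 1 to 452 bp in FK866 plus succinate 2. The next widest lay near Padi1 (2856 bp) and within Acsbg3 (2242 bp), an acyl-CoA synthetase. With adjusted p under 0.05, the 10 strongest also included a region at the start of Ptgs1 (chr2:36230092-36230935), the constitutive cyclooxygenase, with 666 and 425 bp in Control and 660 and 544 bp in FK866 plus succinate. The widest of that set, 2145 bp, lay 68369 bp from Id2, a regulator needed for innate lymphoid cells.

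FK866-only regions were led by stretches near Fbxo8, at 349140 bp, and Zfp791, at 7693 bp, with mean percentiles of 59.6 and 58.4. A region 20009 bp from Dok2 (chr14:70798503-70798888), an adaptor that restrains receptor signalling in blood cells, had 300 and 262 bp in the FK866 libraries. Regions within Fbxo34, Runx2 (chr17:44654528-44654995), a RUNX transcription factor, Asb2, Snd1, Lclat1 and Slc4a1 and near Atg7 completed the 10 strongest. Among the 46 that held in both readings was a region in Ptgdr2 (chr19:10938309-10939006), the receptor for prostaglandin D2 that marks type 2 cells, with 386 and 529 bp. Another lay in Nadk2 (chr15:9078854-9079287), the mitochondrial NAD kinase, with 414 and 434 bp. A further one lay 5921 bp from Ccl5 (chr11:83536439-83537149), a chemokine of activated lymphocytes, with 711 and 340 bp. The widest FK866-only regions lay in Ilrun (1776 bp), Dnmt1 (1510 bp), the maintenance DNA methyltransferase, and Safb2 (1444 bp).

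At genes, 33 windows were covered in all 4 other libraries and empty in FK866, which is 0.208% of the genes with a site. FK866 alone covered 7 windows (0.0441%). The first count ranged from 6 to 59 over the 15 pairs and held rank 3, together with Control 2 and FK866 1 (exact permutation test, p = 0.2). The second was the lowest of the 15 (exact p = 1, range 7 to 81). A window of the whole gene and 2 kb to either side gave 44 and 4 genes. That reading took in all 21887 genes, with or without a site. There 44 was the highest of the 15 counts, at the smallest p the design allows (exact p = 0.0667), and 4 was the lowest (exact p = 1). The 33 and the 44 had 17 genes in common, 51.5% and 38.6% of each. Counting only peaks with adjusted p under 0.05 gave 13 (0.0818%) and 20 genes (0.126%), both at rank 7 of 15 (exact p = 0.467). Only Gm7592 and Apon were absent in FK866 alone both in the whole lists and with adjusted p under 0.05, and no gene was FK866-only in both. Between the pattern and its neighbours, 94 windows had peaks in all 4 others and in FK866 1 alone, 59 in FK866 2 alone, and 92 had peaks in 3 of the 4 and in neither FK866 library.

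**Figure D3:**
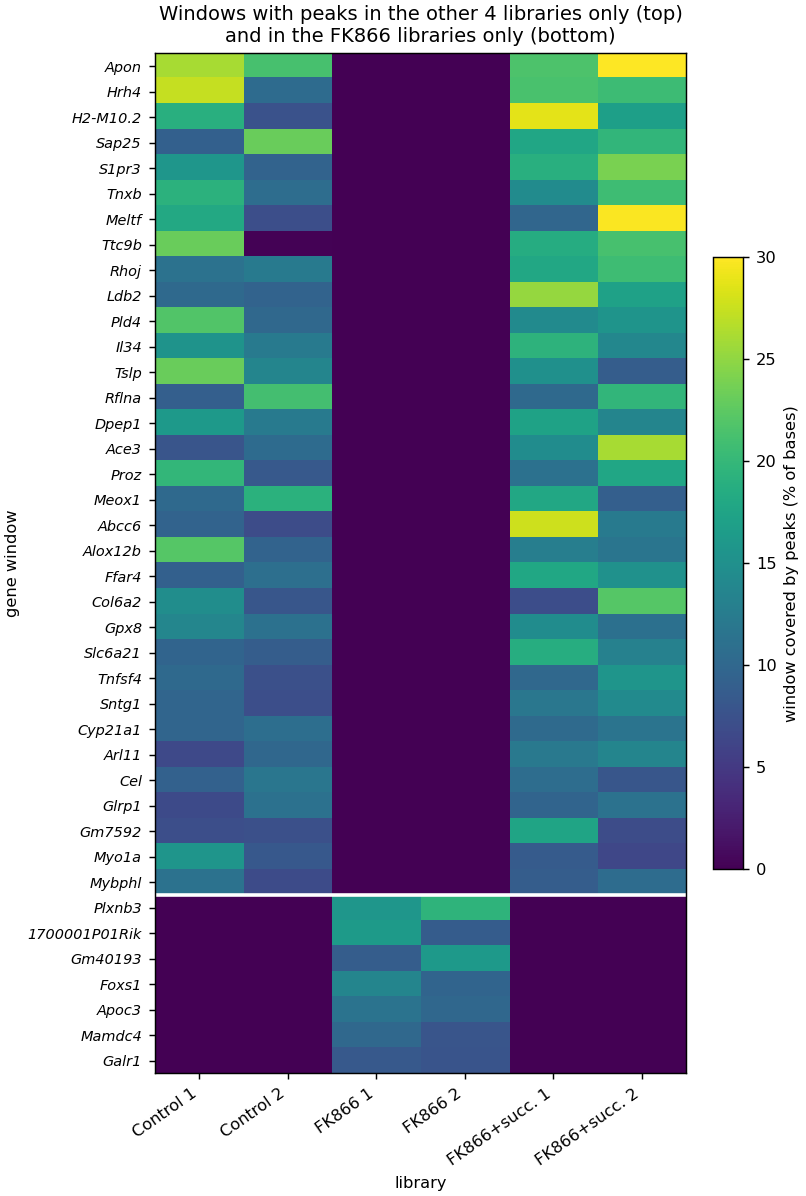
Percentage of each 4-kb gene window covered by peaks (colour) in the 6 libraries (columns) for the 33 genes with peaks in the other 4 libraries only (above the white line) and the 7 genes with peaks in FK866 only (below it), each in order of mean coverage. Coverage where present is low, with means between 9.4% and 24.8% above the line and between 8.1% and 17.7% below it, against library medians of 38.6% to 40.9% over all windows with peaks in all 6.

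Receptor genes were among the 33. Hrh4 (chr18:13006982-13023701), a histamine receptor, had window coverage of 27.4% and 10.5% in Control, 0% in both FK866 libraries and 21.4% and 20.6% in FK866 plus succinate. S1pr3 (chr13:51408618-51422797), a sphingosine 1-phosphate receptor, had 15.8% and 9.55%, 0% and 0%, and 18.9% and 24.0%, in a window that holds its own start. Ffar4, whose promoter is printed above, had 9.15% and 10.9%, 0% and 0%, and 17.9% and 15.2%. In these 3 genes the FK866 plus succinate mean (21%, 21.4% and 16.6%) lay above the Control mean (19%, 12.7% and 10%). Of the 36 ILC2 receptor genes with a site, 33 had peaks in all 6 libraries, 2 (S1pr3 and Hrh4) were absent in FK866 alone and none was FK866-only. Both FK866 libraries lay below all 4 others at 5 of them and above at 3. Over all 15168 windows covered in at least 2 libraries, the shares were 3.03% below and 10.1% above. Il17rb, the receptor for IL-25, was covered to 64.7% and 70.0% in Control, 54.9% and 60.9% in FK866 and 73.3% and 67.7% in FK866 plus succinate, so the FK866 libraries were the lowest without being empty. Il1rl1, the receptor for IL-33, was also lowest in FK866, but by 0.744 points.

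Cytokine and costimulation genes were the next group. Tslp (chr18:32815383-32819799), an alarm cytokine of epithelium, was covered to 23.2% and 13.6% in Control, 0% in FK866 and 15.1% and 8.82% in FK866 plus succinate. Tnfsf4 (chr1:161395438-161418206), which encodes the costimulatory ligand OX40L, had 10.3% and 7.37%, 0% and 0%, and 10.1% and 15.6%. Il34, a ligand of the colony-stimulating factor 1 receptor, had 15.4% and 12.2%, 0% and 0%, and 19.4% and 13.9%. Gpx8, an endoplasmic reticulum peroxidase, was the only gene of the antioxidant list with the pattern, at 13.8% and 11.2%, 0% and 0%, and 14.6% and 11.1%. None of these windows kept the pattern with adjusted p under 0.05.

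The highest coverage in the group was that of Apon (chr10:128254131-128255901), an apolipoprotein gene, with 26.1% and 21.3% in Control, 0% in FK866 and 21.6% and 30% in FK866 plus succinate. Rhoj, a small GTPase of endothelium, had 11.3% and 12.3%, 0% and 0%, and 18% and 20.7%. The remaining genes were H2-M10.2, Sap25, Meltf, Tnxb, Ttc9b, Ldb2, Pld4, Rflna, Ace3, Dpep1, Proz, Meox1, Abcc6, Alox12b, Col6a2, Slc6a21, Sntg1, Arl11, Cyp21a1, Cel, Glrp1, Gm7592, Myo1a and Mybphl. Ttc9b rests on a sliver of 0.225% in Control 2, against 23.2% in Control 1. In 11 of the 33 the window holds the gene's own RefSeq start. The 7 FK866-only genes were Plxnb3 (15.8% and 19.5% in the FK866 libraries), a semaphorin receptor, 1700001P01Rik, Gm40193, Foxs1 (13.6% and 9.62%), a forkhead factor, Apoc3, Mamdc4 and Galr1.

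With adjusted p under 0.05, 4 further list genes showed a pattern that the whole lists did not. Ccr9, the gut-homing chemokine receptor, was covered by such peaks to 14.6% and 8.42% in Control, 0% in FK866 and 17.4% and 49.3% in FK866 plus succinate, but FK866 1 had a weaker peak over 9.65% of the window. Ptgdr2 was covered by such peaks only in FK866, to 9.65% and 13.2%, while all 6 libraries had some peak there. Ccr3, the eotaxin receptor, had such peaks over 11.8% and 9.87% in FK866 only, but Control 1 had a weaker peak over 10.6% and FK866 plus succinate 2 over 0.45%. H2-Aa, a major histocompatibility class II chain, had them over 6.8% and 14.5% in FK866 only, but weaker peaks covered 15.9% in FK866 plus succinate 1, more than in either FK866 library. Themis, a signalling protein of the T lineage, and Ptgs1 were among the 13 absent genes, and Twist1 and Tbxa2r, the thromboxane receptor, among the 20 FK866-only genes. Themis had a weaker peak in both FK866 libraries, and Ptgs1 in 1 of them. Tbxa2r had a weaker peak in all 4 other libraries, and Twist1 in 1 of them.

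Where every library had a peak, the width of coverage was compared instead, a reading added after the data had been seen. Peaks were present in all 6 libraries in 13735 windows (86.4%). Both FK866 libraries were narrower than all 4 others in 394 of them (2.87%) and wider in 1482 (10.8%). Over the 15 pairs the count of narrower windows ranged from 350 to 3600 and that of wider windows from 414 to 1658. FK866 held rank 13 for narrower windows (exact permutation test, p = 0.867) and rank 2 for wider ones (exact p = 0.133), behind the mixed pair of Control 2 and FK866 2. In 1133 of the 1482 wider windows (76.5%) the FK866 mean lay nearer to Control than to FK866 plus succinate. FK866 plus succinate was the narrowest pair in 3600 windows.

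limma, fitted over the coverage of all 15168 windows covered in at least 2 libraries, called 0 genes (0%) between FK866 and the mean of the 2 other groups at an adjusted p under 0.05. The smallest adjusted p was 0.368. At an unadjusted p under 0.05 there were 1211 windows, 944 wider and 267 narrower in FK866. The split depended on scaling: after quantile normalization it was 543 wider and 402 narrower, again with 0 genes called. The median difference over all genes was 0.706 percentage points without scaling and -0.159 with it. Of the 944 wider windows, 850 (90%) had the FK866 mean above both other group means, and 781 (82.7%) lay nearer to Control. Of the 267 narrower windows, 242 (90.6%) had the FK866 mean below both, and 148 (55.4%) lay nearer to Control.

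The genes with the lowest p-values show how differently the 3 groups can be ordered. Batf3 (chr1:191098414-191108943), a transcription factor of the AP-1 family, was lowest in FK866. Its window was covered to 40.0% and 38.4% in Control, 17.5% in each FK866 library, and 29.8% and 35.9% in FK866 plus succinate. The difference was -18.55 points (SE 2.09, limma adjusted p = 0.368). The FK866 values lay below all others, and those with succinate lay below Control. Plac8, a small cysteine-rich protein of lymphoid and myeloid cells, had 40.5% and 40.9%, 32.5% and 35.3%, and 54.1% and 53.5% (difference -13.32). Samd4, an RNA-binding repressor of translation, had 28.4% and 27.9%, 20.5% and 23.4%, and 43.8% and 45.2% (difference -14.36). At these 2 genes the higher values were those with succinate, above Control. In windows of 1 kb to either side of the site, the difference at Plac8 had the opposite sign. Gm43707 and Sag were lowest in FK866 as well, at 14.1% ± 1.8 and 3.97% ± 5.62 (SD, n = 2), against 24.8% ± 0.177 and 28.4% ± 4.22 with succinate.

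Other genes entered the list of lowest p-values through 1 of the other groups. At Mlxipl, a glucose-sensing transcription factor, FK866 (31.8% and 31.1%) and FK866 plus succinate (31.0% and 31.7%) were alike and Control was higher (49.4% and 48.5%). At Ifi206, an interferon-inducible gene, only FK866 plus succinate had peaks (35.1% and 31.5%). Apon, Tmem54 and Rhoj completed the 10 narrower windows, and at each of them both FK866 libraries were lowest. With only the peaks whose adjusted p was under 0.05, the difference at Tmem54 had the opposite sign.

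Among wider windows, Eif4a3, an RNA helicase of the exon junction complex, had 50.8% and 49.2% in Control, 58.3% and 56.2% in FK866 and 38.6% and 36.9% in FK866 plus succinate (difference 13.38 points, SE 1.21, limma adjusted p = 0.368). Pitx1, a homeobox factor, had 25.3% and 27.6%, 35.2% and 39.1%, and 8.52% and 4.9%. Rpl13a, a ribosomal protein gene, had 57.9% and 60.0%, 65.6% and 63.4%, and 47.7% and 45.3%. Both FK866 libraries were highest at these genes, and FK866 plus succinate was lowest. Rpl3, another ribosomal protein gene, did not separate FK866 from Control (71.9% and 72.2% against 71.9% and 72.4%), and its difference came from 52.9% and 51.4% with succinate. Slc25a47, a mitochondrial carrier, had 18.9% and 17.5%, 28.3% and 31.6%, and 8.05% and 8.57%. Lats2, a kinase of the Hippo pathway, shares its window with Gm52140 and had 50.2% and 52.1% in FK866 against 39.7% to 42.1% elsewhere. Naa16, Smc2 and Ybx2 completed the 10. In windows of 1 kb to either side of the site, the differences at Rpl3 and Naa16 had the opposite sign.

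**Figure D4:**
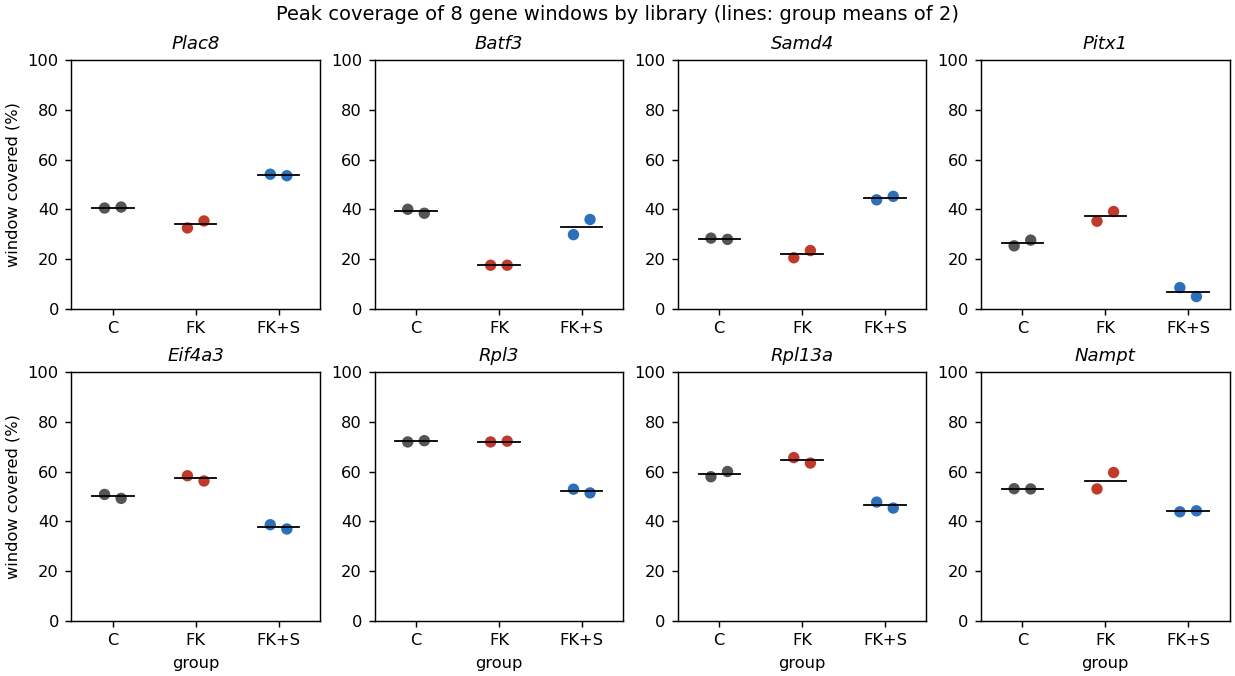
Percentage of the 4-kb window covered by peaks (y axis) in each library (points) by group (x axis; C, Control; FK, FK866; FK+S, FK866 plus succinate) for 8 genes, with lines at the group means of 2 libraries. FK866 is lowest at Batf3, Plac8 and Samd4 and highest at Pitx1, Eif4a3 and Rpl13a, while at Rpl3 FK866 and Control coincide near 72% and FK866 plus succinate lies near 52%. In windows of 1 kb to either side of the site, the differences at Plac8 and Rpl3 had the opposite sign.

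Nampt (chr12:32820335-32853369), the gene of the enzyme that FK866 inhibits, was covered to 53.1% and 53.0% in Control, 53.0% and 59.6% in FK866 and 43.8% and 44.2% in FK866 plus succinate. FK866 1 equalled Control, and the groups overlapped (difference 7.8 points, SE 2.01, limma adjusted p = 0.506). Inhibition acts on the enzyme and not on the gene, so this window does not check the labels. Windows of 1 kb to either side of the site gave 11 genes past an adjusted p of 0.05 (0.0729% of 15095), 10 wider and 1 narrower, in 9 different windows. Nampt was 1 of them, at 98.7% and 98.6% in Control, 98.6% and 100% in FK866 and 80.2% in each FK866 plus succinate library (difference 9.88 points, limma adjusted p = 0.0474). At Tmcc2, Galc and Cyp1b1 Control and FK866 were both covered fully and FK866 plus succinate was not, and Ppp4c had 90.7% in Control, 90.8% ± 0.106 in FK866 (SD, n = 2) and 68.4% with succinate. FK866 itself stood apart at Gna15 (100% against 96.3% in both other groups), Tnfaip1 and Ift20 (99.3% against 93.0% in Control and 88.1% with succinate), Setd3 and Ccnk (98.4% against 93.3% and 90%) and Scaf8 (94.3% against 99.1% and 98.0%). None of the 11 passed in the 4-kb windows, where their adjusted p-values lay between 0.446 and 0.688 (limma), and many had libraries with identical coverage.

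Gene groups are described by their counts and medians beside all 15168 genes, of which 9532 were wider in FK866 (62.8%), with a median difference of 0.706 points. No gene in any list passed the adjusted threshold. Of the 33 respiratory chain genes, 28 were higher in FK866 (median 1.42 points), and both FK866 libraries were above all others at 7, such as Cox7a2 (43.8% and 41.3% against 34.4% to 40.8%) and Cox8a (44.5% and 43.5% against 33.0% to 42.0%), subunits of cytochrome c oxidase. After quantile normalization 18 of 33 were higher (median 0.237), beside 7159 of 15168 genes. Of 23 integrated stress response genes 19 were higher (median 1.68), and 15 after quantile normalization (median 0.839). Mthfd2, a mitochondrial folate enzyme, was highest in FK866, at 45.4% and 47.6% against 34.2% to 41.5%. Atf4 itself overlapped, with 59.0% and 64.3% in FK866 and 52.9% to 60.1% elsewhere.

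Interferon-stimulated genes went the other way by median, at -2.8 points, with 7 of 28 higher and 21 lower in FK866, and 3 of 28 higher after quantile normalization (median -4.02). The libraries that stood apart were those with succinate. The mean coverage over the 29 genes of the list with a site was 33.8% and 33.6% in Control, 33.1% and 32.5% in FK866 and 41.5% and 41.0% in FK866 plus succinate. Ifit1 was covered to 7.77% and 9.95%, 8.15% and 10.2%, and 36.2% and 52.0%. FK866 was below all 4 others at 2 genes of this list only, Irf9 (37.4% and 38.9% against 43.0% to 50.3%), a subunit of the interferon-activated factor, and Zbp1 (49.9% and 48.2% against 51.3% to 61.8%), a nucleic acid sensor. Over all windows covered in at least 2 libraries the share below was 3.03%.

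Genes of NAD metabolism and of the tricarboxylic acid cycle mostly overlapped between groups. The counts above or below all others in this paragraph stand beside 10.1% above and 3.03% below over all windows covered in at least 2 libraries. Of 21 NAD synthesis genes, 12 were higher and 9 lower in FK866, and only Qprt, which makes NAD precursor from tryptophan (48.4% and 48.1% against 35.6% to 44.5%), and Slc25a51, the mitochondrial NAD carrier (48.5% and 52.5% against 44.8% to 48.1%), were above all others. Of 33 genes of the tricarboxylic acid cycle and succinate handling, 23 were higher (median 0.831) and 16 after quantile normalization. The 4 subunit genes of succinate dehydrogenase, Sdha, Sdhb, Sdhc and Sdhd, differed by 1.99, 2.21, 2.56 and 3.64 points, each with overlapping groups. Mdh1, a malate dehydrogenase, and Aldh5a1, which oxidises succinate semialdehyde to succinate, were highest in FK866 (44.0% and 43.2%, and 34.3% and 34.5%), and Pdhb was lowest. Of 37 fatty acid genes 27 were higher (median 0.55), and 17 after quantile normalization. Of 25 sirtuins and other NAD consumers 11 were higher and 14 lower (median -0.8), with 10 higher after quantile normalization. Both FK866 libraries were below all others at 4 of these genes and above at 1. Of 24 demethylase genes 14 were higher (median 0.734), and 9 after quantile normalization (median -0.428). Both FK866 libraries were above all others at 3 of them, such as Kdm2a (57.9% and 62.5% against 45.5% to 57.1%), and below at 2, such as Kdm7a. Of 27 methyltransferase genes 21 were higher (median 1.11), and 14 after quantile normalization (median 0.104). There Setd1a, Setd7, Suv39h1 and Setdb1 were highest in FK866.

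Of the 15 genes on the list of ILC2 cytokines and effectors, 12 had peaks in all 6 libraries. Il9 had a peak in FK866 plus succinate 2 alone (6.4%). Il5 was covered to 86.1% in each FK866 library, against 77.8% to 85.4% in the others, and Il13 to 72.7% and 76.9% against 55.5% to 74.9%, with overlap. Il6 was lowest in FK866, at 13.3% and 17.5%, but Control 1 (45.3%) stood far above Control 2 (19.1%). Of the 13 tested genes of this list 6 were higher and 7 lower. T cell markers had the highest list median, 7.4 points, with 6 of 7 higher and 4 above all others: Foxp3 (46.9% and 42.3% against 7.32% to 29.7%), the factor of regulatory T cells, Cd5 (23.5% and 32.2% against 9.07% to 20.4%), Cd3d (46.0% and 41.7% against 33.0% to 38.0%) and Lck (49.8% and 47.9% against 36.9% to 45.0%). The Lck window held the gene's own RefSeq start, and those of Foxp3, Cd5 and Cd3d did not. Of the 10 genes on the list, 7 had a site. Over all windows covered in at least 2 libraries, 10.1% had both FK866 libraries above all others. The mean over the list was 29.9% and 26.5% in Control, 33.9% and 35.6% in FK866, and 22.5% and 27.3% in FK866 plus succinate. The FK866 libraries lay above all 4 others, which overlapped each other. Cd3e, which defines T cells, had 8.47% and 6.17% in FK866, 13.8% and 0% in Control and 0% with succinate, and Cd4 overlapped. The part of other cells in the Lck promoter peak and in this list was not tested. Means of the myeloid, epithelial, B cell and stromal lists lay between 10% and 31.2% in every library, and in none of them was the FK866 mean above both other group means. The ILC1 and NK list, with 4 genes that had a site, lay higher, between 31.4% and 44.9%. The ILC3 list lay between 14.4% and 20.9%. In neither was the FK866 mean above both other group means. Of the 5 mast cell and basophil genes only Kit had a site. Kit was covered to 63.6% in each FK866 library and to 54.7% to 63.2% in the others.

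**Figure D5:**
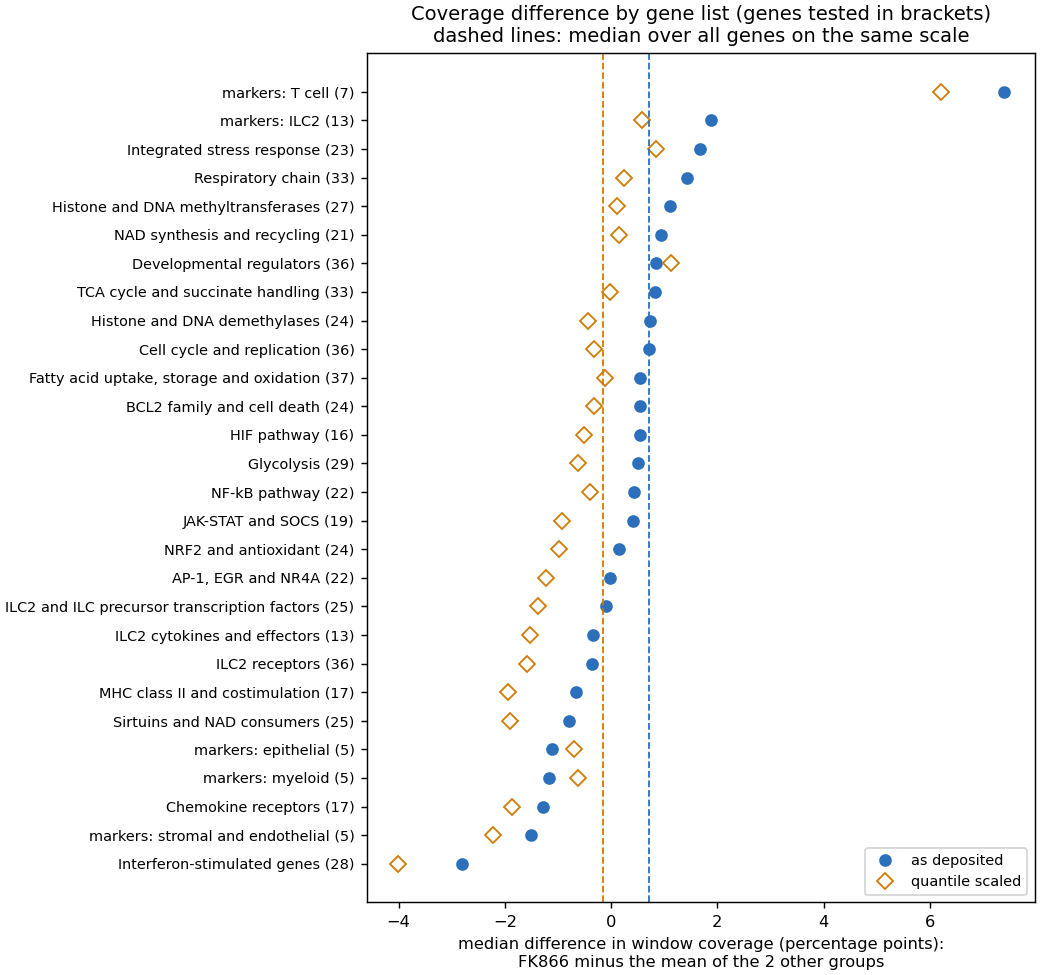
Median difference in window coverage, FK866 minus the mean of the 2 other groups, in percentage points (x axis) for each gene list with at least 5 tested genes (y axis, number tested in brackets), from coverage as deposited (blue) and after quantile normalization (orange), with dashed lines at the medians of all genes, 0.706 and -0.159. T cell markers lie highest, at 7.4 and 6.21, interferon-stimulated genes lowest, at -2.8 and -4.02, and most lists lie near the line of their scale.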

How the data were processed

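CUT&Tag peak lists of 6 libraries were analysed. Per the submitters' processing notes, cutadapt 1.9, Bowtie2 2.5.0 and the mm10 assembly were used; no label used here names the peak caller. The authors deposited, for each peak, a score, a ratio (fold enrichment) and -log10 p and -log10 q values, each relative to its own library, so they were compared only within a list. Peaks overlapping by 1 bp were merged. Counts for the FK866 pair were ranked among the 15 pairs (one-sided exact permutation test). A gene's value was the percentage of bases covered by peaks within 2 kb of its lead site, the summit with the highest mean percentile over all libraries in the gene or within 2 kb. limma 3.58.1 in R 4.3.3 (trend, Benjamini-Hochberg at 0.05) used 3 group means with no scaling between libraries; other steps used Python 3.11.15 and pandas 2.3.3. The FK866 contrast was tested on simulated data. Read depth is unknown, and background was inferred from the steps of the fold values. Coverage measures peak width, not signal. Promoter sequences are RefSeq's, GRCm38.p6.

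Named were the 10 strongest and 3 widest regions per pattern, the 15 highest windows, list genes with a pattern, the 10 lowest limma p-values per direction and Nampt. Other list genes and the promoters shown were named after their values were seen. Members and lists were chosen with earlier results of these data known.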

Additional observations from a re-analysis of the deposited data

How the results depend on the processing

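Counts of members moved with the peaks counted. Absent regions numbered 80 with adjusted p under 0.05, 212 in lists of equal length and 167 in the higher-scoring 50% of each list, beside 379. FK866-only regions numbered 357 with adjusted p under 0.05 and 46 in the higher-scoring 50%, beside 607. Absent gene windows numbered 13, 21 and 20 with adjusted p under 0.05, at equal length and in the higher-scoring 50%, beside 33. FK866-only windows numbered 20 in each of the former 2 readings and 4 over the whole gene, beside 7. Promoter windows absent in FK866 numbered 8 with adjusted p under 0.05, beside 19. The 1-kb windows gave 11 limma calls, beside 0. Other list readings and windows stayed within 1.5 times.

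Leaving out 1 library relaxes the rule, so counts rose, from 728 to 1096 absent regions and from 857 to 7303 FK866-only regions, the highest without FK866 replicate 1. Gene windows numbered 42 to 127 and 11 to 79, promoters 27 to 97 and 38 to 154, and narrower and wider windows 580 to 1529 and 1776 to 3872. limma called 0 genes in each case, and the Jaccard separation stayed between -0.0421 and -0.0102. The ranking of wider and narrower windows, and the promoter windows, were chosen after seeing the data.

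The replicate numbers paired no libraries by their labels, and replicate differences correlated between groups at 0.0274, -0.035 and 0.0148. A replicate block gave 0 calls (1144 at an unadjusted p under 0.05, smallest limma adjusted p 0.589).

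Of the genes named from limma, 4 reversed under an alternative: Tmem54 to 1.51 points with adjusted p under 0.05, and, in 1-kb windows, Plac8 to 3.15, Rpl3 to -0.412 and Naa16 to -0.875; the cause was not tested. Depth limits the absence of a peak: the lowest summits held 3 to 5 fragments.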
